A study of Mus musculus with 2 samples.

Results

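The nuclei described here are colonic fibroblasts with transcripts of Bmp5 or Wnt5a, the expression profile of the stromal cells that lie beneath the colonic epithelium. They were chosen by their own counts. A member nucleus held at least 2 UMIs (unique molecules counted) from at least 2 of the fibroblast genes Pdgfra, Col1a1, Col1a2, Col3a1, Dcn, Lum and Col6a3, and more UMIs of Bmp5 plus Wnt5a than of Clec3b, Pi16, Dpt and C3 together. Muc2 had to stay below 0.5% of its UMIs, Myh11, Des and Actg2 at 2 UMIs or fewer in sum, and Pecam1 and Csf1r at 0. The rule found 422 members among 21034 kept nuclei, 153 of 8888 in the wild-type library and 269 of 12146 in the Pink1 knockout library.

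Colon was taken from male C57BL/6 mice aged 15 weeks, either Pink1 knockout or wild-type littermates, and no other allele or treatment is named. Nuclei were isolated with detergent, sorted after SYTOX Green staining and pooled from 3 mice per genotype before loading, so each genotype is 1 library and 1 pool, with no replicate check. The labels give no promoter or cell type that would limit the knockout. Genotype, library and the labelled batch (1 for wild type, 2 for knockout) coincided and cannot be told apart. All values below are UMIs summed over the members of a library, or counts scaled to a sum of 1e+06 per library (CPM) over nuclear-encoded genes. Intervals in parentheses are 95% intervals for counting error only and do not cover the spread between mice or between nuclei, so no p-value is given.

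Subepithelial fibroblasts flank the epithelium and exchange signals with it. BMP ligands secreted by them favour differentiation of epithelial cells, Wnt5a acts mainly through receptors outside the beta-catenin route, and hedgehog ligands made by the epithelium act back on the fibroblasts through Ptch1 and the Gli factors. Fibroblasts deeper in the wall, which carry Cd34 and Pi16 or Clec3b, are known instead for elastic and loose connective matrix and for BMP antagonists such as Grem1. Pink1 is a kinase found on damaged mitochondria, which it tags for mitophagy.

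Members had a median of 1422 UMIs and 771 genes in the wild-type library and 1522 UMIs and 867 genes in the knockout library, and together 276358 and 484380 nuclear UMIs, so that 3 counts equal 10.9 and 6.19 CPM. The whole libraries held 16997995 and 22446326 UMIs. Pink1 itself gave 2 wild-type and 6 knockout UMIs in the members, too few to check the labels there. Over all kept nuclei it was at 0.573 of its wild-type level, and the 3' tags counted need not lie in the deleted part. Nuclei with the highest doublet scores were 8.50% of the members from the wild-type library and 14.1% of those from the knockout library, against 7.11% and 9.72% of all kept nuclei. Of the barcode sequences, 28 occurred in both libraries and none was a member in both.

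The genes that the label names were high in the members because the rule and the label used them, so their levels are a description. Pdgfra had 1505 and 1315 CPM (wild-type library first), Bmp5 at 868 and 921 CPM, Wnt5a at 525 and 535 CPM, and Col6a3 at 854 and 993 CPM. Of the members, 82 wild-type and 150 knockout nuclei had Bmp5 without Wnt5a, 30 and 37 had Wnt5a without Bmp5, and 41 and 82 had both. The threshold was often met narrowly: 70 of 153 and 119 of 269 members had exactly 1 UMI of the pair. Those nuclei held Pdgfra at 899.8 and 1033 CPM and Nrg1 at 786 and 1068 CPM. Members with 2 or more UMIs held Pdgfra at 1880 and 1472 CPM and Nrg1 at 1950 and 1948 CPM. Just outside the rule, 19 and 45 nuclei tied between the 2 gene sets, with Pdgfra at 1634 and 1199 CPM and Dcn at 1634 and 834 CPM. The members held Dcn at 275 and 361 CPM.

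Markers that the rule did not use gave a mixed check of the label. Sox6, a transcription factor of the subepithelial cells, was found in 42 wild-type and 65 knockout members (268 and 231 CPM), and Foxl1, the classical marker of telocytes, in 7 and 9 members (25.3 and 26.8 CPM). Frzb and Vstm2a were at 0 in both libraries, the only 2 of the 14 subepithelial markers without a UMI in the members. The 14 markers summed to 4375 and 5029 CPM in the members and to 2260 and 2082 CPM in fibroblasts chosen by the mirrored rule. A lamina propria fibroblast list of 4 genes was also present, at 1368 and 1216 CPM, against 950 and 1057 CPM under the mirrored rule. Its Adamdec1 was found in 105 and 176 members, more than Sox6. A trophocyte fibroblast list of 5 genes was low, at 47.0 and 59.9 CPM against 630 and 574 CPM. Of other cell types, the glial list of 5 genes summed to 2 and 6 UMIs, the blood endothelial list of 6 genes, Pecam1 of the rule among them, to 2 and 6, and the macrophage and dendritic list of 6 genes, Csf1r among them, to 2 and 13. Lists of the other mesenchymal types were not near 0. The pericyte list of 6 genes summed to 76 and 146 UMIs (275 and 301 CPM, against 45.2 and 62.7 CPM over all kept nuclei). Pdgfrb, a receptor that fibroblasts also carry, gave 47 and 78 of them in 31 and 58 members, Rgs5 14 and 33 in 2 and 5 members, and Higd1b 0. The list of 5 genes for interstitial cells of Cajal summed to 186 and 376 UMIs (673 and 776 CPM, against 312 and 320 CPM). Gja1, a gap junction gene, gave 109 and 272 of them, and Kit, the defining receptor, 7 and 9 in 5 and 4 members. The smooth muscle list of 8 genes, 3 of them limited by the rule, summed to 105 and 173 UMIs (380 and 357 CPM, against 285 and 456 CPM). The T and innate lymphoid list of 6 genes summed to 3 and 31 UMIs, of which Ptprc, the pan-leukocyte gene, gave 2 and 23 in 2 and 5 nuclei. The epithelial list of 8 genes summed to 503 and 764 CPM in members and to 1508 and 2451 CPM over all kept nuclei, and the goblet list of 6 genes to 735 and 768 CPM in members. The part of these transcripts in the results was not tested.

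Joint clustering of all kept nuclei used the 2000 most variable genes, did not leave out the genes of the rule, and so is a description. The clustering split the members. Cluster 13, led by Nrg1, Pdgfra, Pappa, Ptgs2, Ereg and Fst, held 97 wild-type (63.4%) and 171 knockout members (63.6%). Cluster 11, led by Dcn, Gsn, Ccn2, Col3a1, Bmp4 and Adamdec1, held 35 (22.9%) and 63 (23.4%), beside 105 and 183 nuclei of the mirrored rule. Adamdec1 was among the leading genes of both clusters, at 1223 CPM over all nuclei of cluster 13 and 1156 CPM over those of cluster 11. The remaining 21 and 35 members were spread over clusters led by Hhip and P2ry14, by smooth muscle genes such as Myh11 and Carmn, by Meis2 and Satb1, and by others. The label thus names most of the members and not all of them. Bmp5 stood at 881 and 1015 CPM in cluster 13 and 1024 and 842 CPM in cluster 11, and Wnt5a at 703 and 714 CPM and at 77.3 and 106 CPM. The rule required UMIs of the pair in every member, so nothing is read from these levels.

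The members inside cluster 13 carried nearly all of several ligands and surface genes. Fst, the secreted antagonist follistatin, gave 55 wild-type and 278 knockout UMIs in cluster 13, 0 and 0 in cluster 11 and 0 and 1 elsewhere. Nrg1, a ligand of the ErbB receptors, stood at 2105 and 2113 CPM in cluster 13, at 96.6 and 813 CPM in cluster 11 and at 214 and 358 CPM elsewhere. F3, the tissue factor that starts coagulation, stood at 349 and 994 CPM in cluster 13 and at 19.3 and 48.4 CPM in cluster 11. Sox6 stood at 370 and 338 CPM in cluster 13 and at 38.6 and 9.67 CPM in cluster 11. Gsn, which encodes the actin-severing gelsolin, ran the other way, at 135 and 148 CPM in cluster 13 and 1140 and 842 CPM in cluster 11.

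**Figure D1:**
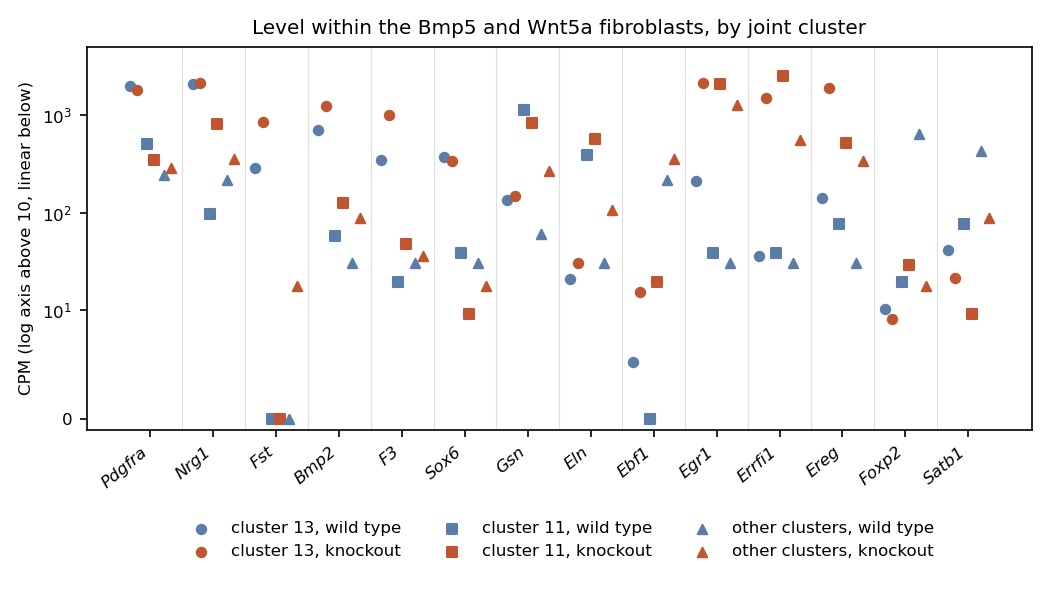
CPM (vertical axis, logarithmic above 10 and linear below) of 14 genes in the members, by joint cluster (circles cluster 13, squares cluster 11, triangles all other clusters) and library (blue wild type, orange knockout). Fst, F3 and Sox6 are highest in cluster 13, Gsn and Eln in cluster 11, and 21 of 24 wild-type Foxp2 UMIs and 14 of 26 of Satb1 lie in the other clusters.

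To show where these cells differ from their nearest neighbours, the same gates were applied with the marker sets exchanged, so that Clec3b, Pi16, Dpt and C3 together outnumbered Bmp5 plus Wnt5a. This gave 176 wild-type and 288 knockout nuclei, called the Clec3b group here, with medians of 1533 and 1579 UMIs. The rule chose both groups on expression, so the contrast is a description with no test. Of 5433 genes with at least 20 UMIs over both groups in each library, 5.65% were at least 1.5-fold higher in the members in both libraries and 6.18% at least 1.5-fold lower in both. The 12 highest by their weaker interval bound were Fst, Nrg1, Ptprr, Bmp2, Fgf9, F3, Sema3f, Slitrk6, Ptpre, Lama5, Abcc4 and Procr. They were secreted or surface proteins for the most part: the growth factors Nrg1, Bmp2 and Fgf9, the guidance ligand Sema3f, the laminin chain Lama5 of epithelial basement membranes, and the coagulation genes F3 and Procr.

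Bmp2 gave 139 UMIs in the wild-type members against 23 in the wild-type Clec3b group, a 6.91-fold difference in CPM (4.42 to 11.3), and 419 against 64 in the knockout library, 7.21-fold (5.53 to 9.53). Nrg1 was 7.43-fold (5.70 to 9.83) and 9.90-fold higher (7.94 to 12.5), from 416 against 64 and 791 against 88 UMIs. Fst gave 55 against 1 UMIs in the wild-type and 279 against 8 in the knockout library, and 36.4% of the wild-type member UMIs came from a single nucleus. Fgf7, a growth factor for epithelial cells, was at 333 and 448 CPM in the members, 5.26-fold and 12.6-fold above the Clec3b group. Tnc, the matrix protein tenascin C, was 3.94-fold and 3.55-fold higher, and Ptch1, the hedgehog receptor, 2.76-fold and 3.05-fold higher. In each of these genes both libraries placed the members higher.

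Lowest in the members were Cd55, Cd34, Col8a1, Col14a1, Gsn, Mfap5, Eln, Grem1, Gfpt2, Mgp, Adgrd1 and Ebf1, the 12 of the same rule in the other direction. Eln, which encodes elastin, gave 25 UMIs in wild-type members against 317 in the Clec3b group, a ratio of 0.0902 (0.0575 to 0.136), and 75 against 659 in the knockout library, a ratio of 0.125 (0.0974 to 0.159). Mfap5, a microfibril protein of elastic fibres, gave 3 against 78 and 9 against 136 UMIs. Grem1 gave 1 against 52 and 2 against 46 UMIs, and Cd34 4 against 124 and 14 against 216. Ebf1, a mesenchymal transcription factor, stood at 28.9 and 55.7 CPM in the members and 614 and 412 CPM in the Clec3b group. Of the 27 interstitial matrix genes measured in this contrast, 13 were at least 1.5-fold lower in the members in both libraries and 2 higher, beside 6.18% and 5.65% of all genes. Basement membrane genes were divided, with 4 of 14 higher, among them Lama5 (16.0-fold and 6.24-fold) and Col4a6 (10.3-fold and 5.95-fold), and 3 lower.

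**Figure D2:**
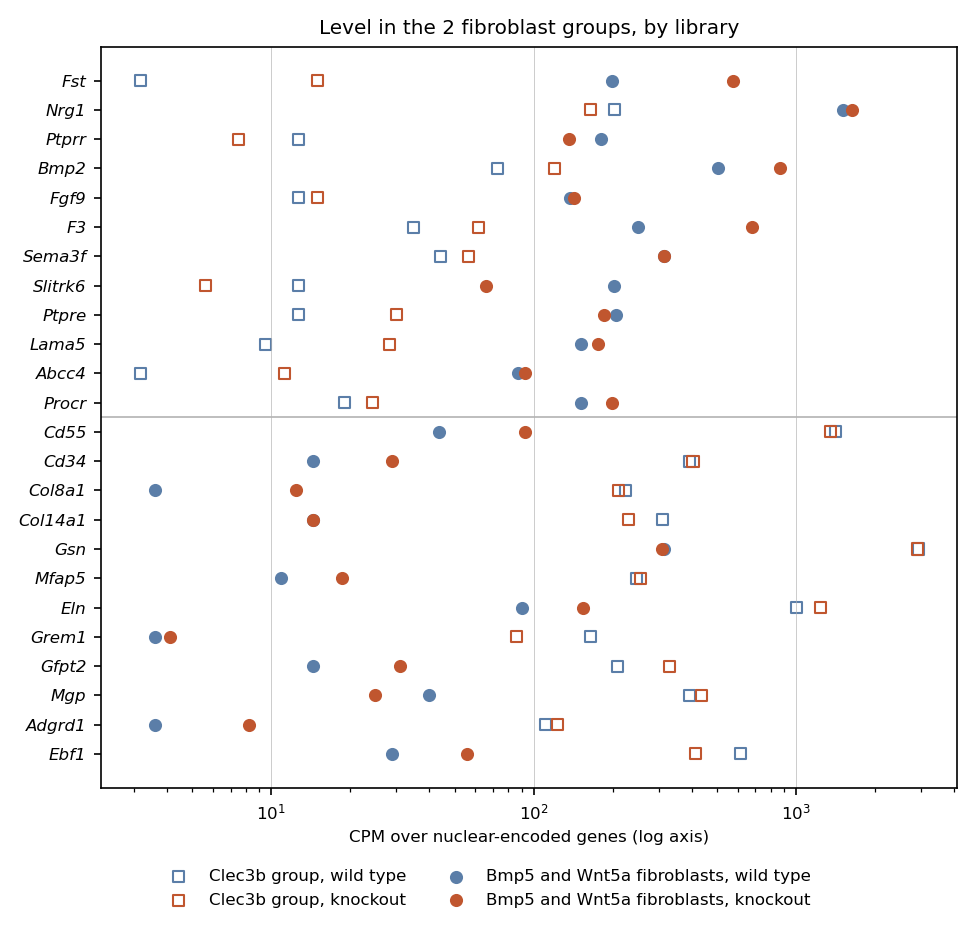
CPM on a log axis for the 12 top and the 12 bottom genes of the members against the Clec3b group (filled circles members, open squares Clec3b group, blue wild type, orange knockout). For each gene the 2 libraries place the groups in the same order, as for Bmp2 at 503 and 865 CPM in the members against 72.8 and 120 CPM.

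Members made up 1.72% of kept nuclei in the wild-type library (1.46 to 2.01) and 2.21% in the knockout library (1.96 to 2.49), a ratio of 1.29 (1.05 to 1.58). Nuclei past all fibroblast gates differed by a like ratio, at 6.54% and 8.53% of kept nuclei, a ratio of 1.30 (1.18 to 1.45). Within them the members were 26.3% and 26.0%, a ratio of 0.986 (0.806 to 1.21). Of members and Clec3b group together they were 46.5% and 48.3%, a ratio of 1.04 (0.848 to 1.27). The difference was therefore one of fibroblast nuclei per library and was not detectable within the fibroblasts at this depth. Whether dissociation and sorting released different amounts of stroma in the 2 pools was not tested.

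The genotype contrast covered 6407 genes with at least 20 UMIs over the members of both libraries. A gene near 0 in 1 library reached that minimum only through the other, and could count only as higher there. In the knockout library 15.8% of them were at least 1.5-fold higher and 11.5% at least 1.5-fold lower, with a median log2 ratio of 0.032 over all of them. The genes furthest above 1 were immediate early and feedback genes of growth factor signalling, together with the EGF (epidermal growth factor) family ligand Ereg and the secreted proteases Adamts1 and Adamts4. By the bound of the interval nearest to 1 the 12 highest were Errfi1, Egr1, Ereg, Arl4d, Adamts1, Fos, Egr2, Btg2, Dusp1, Adamts4, Nr4a1 and Fosb. The 12 lowest were Dmp1, Foxp2, Nr1d1, Ahrr, Mptx1, Slitrk6, Zbtb16, Parn, Akap7, Satb1, Epm2aip1 and Mettl27.

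Errfi1, whose product is induced by EGF receptor signalling and dampens it, lies on chromosome 4, from 150853919 to 150868892 on the plus strand of GRCm38. It gave 10 UMIs in 9 wild-type members and 779 UMIs in 168 knockout members, 36.2 against 1608 CPM, a ratio of 44.4 (24.0 to 93.1). In the Clec3b group it was 18.5-fold higher (12.9 to 27.4), and over all kept nuclei 4.03-fold. Egr1, an immediate early transcription factor, gave 44 UMIs in 16 wild-type and 984 UMIs in 235 knockout members, a ratio of 12.8 (9.43 to 17.7), and 34.1% of the wild-type UMIs came from 1 nucleus. It was 15.9-fold higher in the Clec3b group and 27.2-fold higher over all kept nuclei. Without the member nucleus richest in it in each library the Egr1 ratio was 19.1, and with each nucleus thinned to 500 UMIs it was 28.4. With at least 2 UMIs of Bmp5 plus Wnt5a the Egr1 ratio was 8.26, below its main interval. Requiring 0 UMIs of further cell type genes (such as Kit, Ptprc and Rgs5) put Errfi1 at 79.5. That was the highest of 11 alternatives, and the lowest was 40.7. Both genes were also higher outside the members, so neither difference is one of these fibroblasts alone.

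Ereg encodes epiregulin, which binds the EGF receptor, on chromosome 5 from 91074622 to 91093646. It gave 32 UMIs in 22 wild-type members and 695 UMIs in 133 knockout members, 116 against 1435 CPM, a ratio of 12.4 (8.70 to 18.3). The most in a single nucleus was 7 UMIs in the wild-type and 24 in the knockout library, and 57 knockout members held 5 or more against 1 wild-type member. In the Clec3b group Ereg stood at 63.3 and 467 CPM, a ratio of 7.37 (4.67 to 12.3). Epithelial nuclei were chosen by transcripts of Epcam, Cdh1, Vil1 and Krt8 and by the absence of all fibroblast genes of the rule. Those nuclei held Ereg at 2.71 and 9.22 CPM, far below both fibroblast groups. Within the members Ereg was at 1913 CPM in cluster 13 and 522 CPM in cluster 11 of the knockout library, against 141 and 77.3 CPM in the wild-type one. Members with at least 2 UMIs of Bmp5 plus Wnt5a gave an Ereg ratio of 19.6, the highest of 11 alternatives, and the lowest was 10.6. Other ligands of that receptor were near the limit of counting: Hbegf gave 3 and 29 UMIs (ratio 5.52, 1.71 to 28.3), 1.30 with 0 UMIs of other types, and Areg 3 and 14.

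The differences were also present at equal depth. With each nucleus thinned to 500 UMIs, Egr1 was found in 1.96% of wild-type (0.406 to 5.62) and 62.5% of knockout members (56.4 to 68.3), before thinning in 10.5% and 87.4%. Errfi1 was found in 1.31% and 42.0% after thinning and in 5.88% and 62.5% before. Ereg was found in 6.54% and 32.7% after thinning and in 14.4% and 49.4% before. In epithelial nuclei, which have median depths of 2047.5 and 1778 UMIs, thinned shares for Ereg were 0.127% and 0.519% of 3948 and 6743 nuclei.

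**Figure D3:**
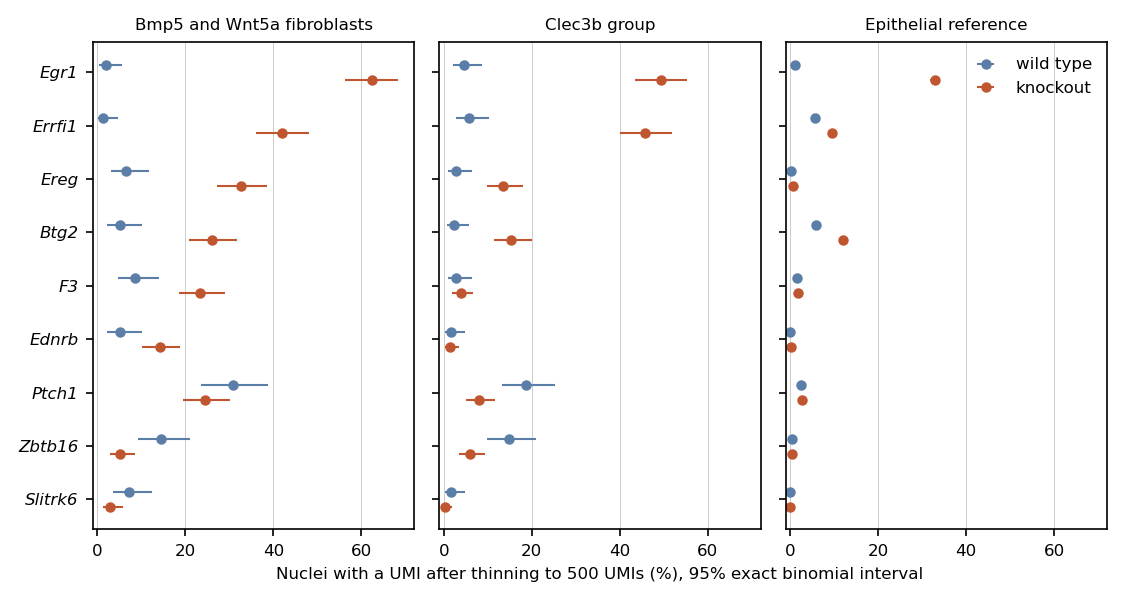
Percentage of nuclei with a UMI of each gene after thinning every nucleus to 500 UMIs (points, with exact binomial 95% intervals as lines) in the members, the Clec3b group and epithelial nuclei (blue wild type, orange knockout). Egr1 goes from 1.96% to 62.5% of members, and F3 and Ednrb are lower in the Clec3b group than in the members of the knockout library.

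Promoter windows from RefSeq (250 bases before to 50 after the start, GRCm38.p6) were searched on all chromosomes but 18, which leaves out Egr1. Of the 12 genes highest in the knockout members, 9 had a searched window. The letters TGACGTCA, the palindrome of the cyclic AMP response element, stood in 4 of them. Among all 27025 genes with a searched window 2.03% held it (1.79% of 32851 windows), and 0 of the 10 lowest genes with such a window did. The 4 stretches are shown, 80 bases each and 5′ to 3′ on the gene's strand, because these genes share a large difference; TGACGTCA is in capitals and reads the same on both strands.
Errfi1, chr4:150854983-150855062, plus strand: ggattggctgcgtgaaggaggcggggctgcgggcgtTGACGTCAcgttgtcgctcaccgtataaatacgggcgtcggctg
Arl4d, chr11:101665461-101665540, plus strand: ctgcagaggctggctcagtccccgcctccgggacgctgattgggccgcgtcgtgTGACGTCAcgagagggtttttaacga
Btg2, chr1:134079278-134079357, minus strand: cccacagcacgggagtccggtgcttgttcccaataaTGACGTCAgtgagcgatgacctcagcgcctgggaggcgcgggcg
Dusp1, chr17:26508572-26508651, minus strand: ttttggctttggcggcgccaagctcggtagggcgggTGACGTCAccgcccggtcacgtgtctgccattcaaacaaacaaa

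Counted from the start site, the 8 letters ended 44 bases upstream in Errfi1, 19 in Arl4d, 159 in Btg2 and 136 in Dusp1. The CArG box bound by serum response factor was found in 1 of the 9 (Egr2), against 1.81% of genes, and Egr1 was not searched. The AP-1 motif TGANTCA was found in 0 of the 9 and in 1 of the 10 lowest (Slitrk6), against 8.97% of genes, with both strands searched (TGACGTCA holds no TGANTCA, and each motif was counted on its own). A match describes letters and does not show that a factor is bound.

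The immediate early list held 32 genes, of which 25 were measured. In the knockout library 23 were at least 1.5-fold higher and 0 lower, beside 15.8% and 11.5% of all genes, with a median log2 ratio of 2.09. This is a list written with earlier results of these data known. Fos gave 6 and 150 UMIs (14.3-fold, 6.402 to 39.5), with 66.7% of the wild-type UMIs in 1 nucleus. Its ratio was 41.4 without the richest nuclei and 5.69 when thinned. Dusp1, a phosphatase that ends MAP kinase signals, gave 11 and 213 UMIs (11.05-fold, 6.05 to 22.5), and 28.2-fold with 3 fibroblast genes required. Its lowest ratio among 11 alternatives was 10.65. Btg2, an antiproliferative gene, gave 21 and 347 UMIs (9.43-fold, 6.07 to 15.4) and Nr4a1, an orphan nuclear receptor, 7 and 148 (12.1-fold, 5.71 to 30.5). Egr2 and Fosb had 0 wild-type UMIs and 42 and 36 knockout UMIs, at least 7.99-fold and 6.85-fold higher against a floor of 3 counts in the library. Thinned to 500 UMIs these bounds were 1.52 and 2.28. The 2 genes between the limits were Ier5 (1.09) and Klf10 (1.32). The feedback list of the same pathway had 5 of 9 genes higher and 0 lower, beside 15.8% and 11.5% of all genes. Spry4 was at 3.93 (2.57 to 6.23), Spry1 at 3.42 (1.89 to 6.71) and Dusp6 at 2.39 (1.47 to 4.05), beside Errfi1. Thinned, Spry4 was at 2.33 and Spry1 at 6.83. The receptors Egfr (1.51, 0.848 to 2.81) and Erbb2 (1.07, 0.565 to 2.10) had intervals that include 1.

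**Figure D4:**
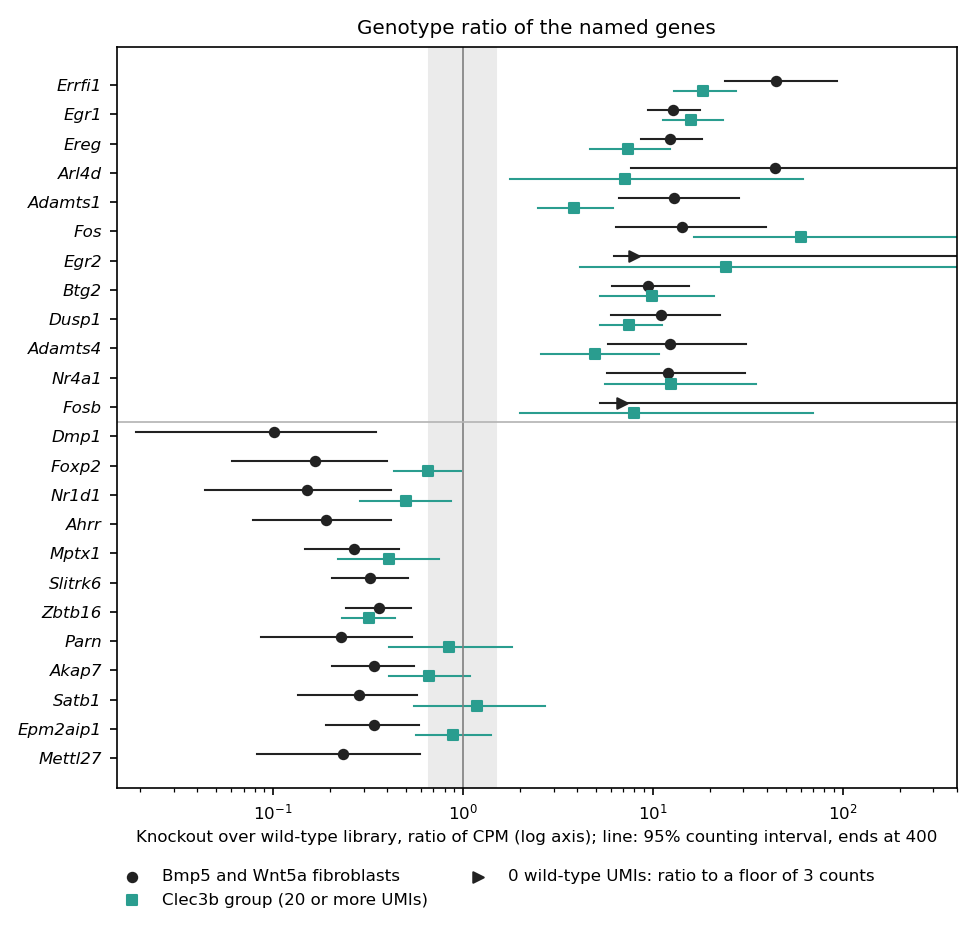
Ratio of CPM, knockout over wild-type library, on a log axis for the 12 highest and the 12 lowest genes (black circles members, triangles lower bounds against a floor of 3 counts, green squares Clec3b group where it had at least 20 UMIs; lines are 95% counting intervals, grey band 1.5-fold either way). All 12 highest genes also lie above 1 in the Clec3b group, whereas among the lowest Satb1 (1.18), Parn (0.846), Akap7 (0.662) and Epm2aip1 (0.888) have Clec3b-group intervals that include 1.

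Genes known to respond to glucocorticoids were mostly higher, with 8 of 10 measured genes higher and 1 lower, beside 15.8% and 11.5% of all genes, and a median log2 ratio of 1.74. The metallothioneins Mt1 (13 and 199 UMIs, 8.73-fold, 4.99 to 16.7) and Mt2 (11 and 152 UMIs, 7.88-fold, 4.28 to 16.1) led it. Mt1 was 17.6-fold with 0 UMIs of other types and 7.99-fold at the lowest of 11 alternatives. Mt1 and Mt2 were 1.18-fold and 1.03-fold over all kept nuclei, and 3.95-fold and 3.75-fold in the Clec3b group. The transcription factors Cebpb (5.13, 2.95 to 9.66), Cebpd (4.40, 3.22 to 6.14) and Klf9 (2.93, 2.35 to 3.69), and Tsc22d3, a glucocorticoid-induced leucine zipper gene (3.88, 2.71 to 5.70), were higher as well. Thinned, Cebpb was at 10.2 and Cebpd at 7.47, but Fkbp5, counted among the 8 at 2.32, was at 0.885. Zbtb16, another target of the glucocorticoid receptor, went against the list, with 71 UMIs in 47 wild-type and 45 UMIs in 41 knockout members, a ratio of 0.362 (0.243 to 0.533), and 0.320 (0.230 to 0.440) in the Clec3b group. The receptor gene Nr3c1 stood at 159 and 136 CPM (0.856, 0.576 to 1.28).

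Clock genes were divided. Of 12 measured, 5 were at least 1.5-fold higher and 4 lower, beside 15.8% and 11.5% of all genes, or 3 and 1 of 6 when thinned. Per1, a repressor of the clock, gave 6 and 67 UMIs (6.37, 2.78 to 18.0; 14.8 when thinned), and Arntl, a core activator, 19 and 74 (2.22, 1.33 to 3.90). Nr1d1 and Nr1d2, repressors of Arntl, gave 19 and 5 UMIs (0.150, 0.0438 to 0.416) and 46 and 35 UMIs (0.434, 0.271 to 0.689), and the output factor Tef 20 and 11 (0.314, 0.136 to 0.687). Nr1d1, Nr1d2 and Tef were at 0.420, 0.502 and 0.381 over all kept nuclei too. Per1 was likewise higher outside the members, at 2.66 over all kept nuclei and 3.28 (1.88 to 6.12) in the Clec3b group. No label gives the hour at which the colons were collected.

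Among ligands of the BMP and TGF-beta family, Bmp2 was higher in the knockout members, with 139 UMIs in 52 wild-type and 419 UMIs in 128 knockout nuclei, 503 against 865 CPM and a ratio of 1.72 (1.42 to 2.10). It was 1.65-fold (1.01 to 2.78) in the Clec3b group and 1.11-fold over all kept nuclei. Bmp4, at 300 and 460 UMIs, was at 0.875 (0.755 to 1.02), and Bmp7, at 38 and 78 UMIs, at 1.17 (0.785 to 1.77), both with intervals that include 1. Bmp3 was lower on few counts, 13 and 7 UMIs (0.307, 0.104 to 0.828). The rule's own Bmp5 and Wnt5a, which every member must carry in sum, are not compared. Of the antagonists, Fst gave 55 UMIs in 12 wild-type and 279 UMIs in 47 knockout members, 199 against 576 CPM (2.89, 2.16 to 3.94). The Fst ratio was 4.37 with 0 UMIs of other types and 2.50 at the lowest of 11 alternatives. Twsg1, a secreted modulator of BMP ligands, was at 0.754 (0.584 to 0.976), but at 1.07 with 0 UMIs of other types and 1.03 when thinned. Grem1, Chrd, Chrdl1 and Nog had at most 9 UMIs each over both libraries.

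Among receptors, Smads and targets of the BMP pathway, 2 of 13 measured genes were at least 1.5-fold higher and 1 lower, beside 15.8% and 11.5% of all genes. Id1 and Id3, direct targets that inhibit differentiation factors, gave 59 and 245 UMIs (2.37, 1.78 to 3.20) and 71 and 249 UMIs (2.00, 1.53 to 2.64). Both were as high over all kept nuclei (2.27 and 2.05). Id2 gave 19 and 22 UMIs (0.661, 0.341 to 1.29). The receptor Bmpr2 was at 311 and 221 CPM (0.710, 0.529 to 0.954), and the inhibitory Smad7 at 170 and 200 CPM (1.18, 0.823 to 1.71).

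Wnt ligands other than Wnt5a were scarce. Of 13 ligand and secretion genes only Wnt4, at 30 and 38 UMIs (0.723, 0.436 to 1.21), and Wls, the carrier that Wnt secretion needs, at 59 and 137 UMIs (1.32, 0.970 to 1.83), reached 20 UMIs. Rspo1 and Wnt2 were at 0 in both libraries, which at 3 counts allows up to 10.9 and 6.19 CPM. Ror2, a Wnt5a receptor, gave 5 and 9 UMIs, and Ryk, another, 25 and 62 (1.41, 0.876 to 2.35). Sfrp1, a secreted inhibitor, gave 5 UMIs in 3 wild-type and 37 UMIs in 29 knockout members (4.22, 1.66 to 13.8; 2.09 when thinned), while the Clec3b group held 51 and 86 UMIs (0.999, 0.698 to 1.44).

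Of the hedgehog genes, the receptor was lower in the knockout library. Ptch1, which is both the receptor and a target of the pathway, gave 285 UMIs in 88 wild-type and 299 UMIs in 138 knockout members, 1031 against 617 CPM and a ratio of 0.599 (0.507 to 0.707). The Clec3b group gave 0.542 (0.414 to 0.710), and all kept nuclei 0.849. The member ratio was 0.766 with 0 UMIs of other types and 0.696 when thinned, both short of 1.5-fold. The other target genes had intervals that include 1, and Gli1 and Hhip turned direction between alternatives. Gli1 gave 31 and 45 UMIs (0.828, 0.513 to 1.35), or 1.99 when thinned. Hhip gave 21 and 52 UMIs (1.41, 0.836 to 2.47), or 0.295 in cluster 13, 0.549 with at least 2 UMIs of Bmp5 plus Wnt5a and 2.64 with 0 UMIs of other types. Foxf1, a forkhead factor downstream of hedgehog in gut mesenchyme, was at 195 and 235 CPM (1.20, 0.864 to 1.70). Of the 8 measured genes of the list Ptch1 was the 1 at least 1.5-fold lower, and 0 were higher, beside 11.5% and 15.8% of all genes.

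Of 15 growth factors measured, 4 were at least 1.5-fold higher and 4 lower, beside 15.8% and 11.5% of all genes, and when thinned 2 and 1 of 9. Beside Ereg and Hbegf, Fgf1 gave 6 and 32 UMIs (3.04, 1.25 to 8.90). Hgf, a growth factor for epithelial cells, gave 74 UMIs in 36 wild-type and 77 UMIs in 52 knockout members (0.594, 0.426 to 0.828), Igf1 26 and 25 (0.549, 0.304 to 0.988; 0.711 when thinned) and Pdgfd 19 and 13 (0.390, 0.177 to 0.833). The ligands with many counts lay near 1: Nrg1 gave 416 and 791 UMIs (1.08, 0.962 to 1.22) and Vegfa 169 and 332 (1.12, 0.929 to 1.36). Within cluster 11, Nrg1 was at 96.6 CPM from 5 wild-type UMIs and at 813 CPM from 84 knockout UMIs.

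Of 22 interstitial matrix genes 2 were at least 1.5-fold higher, Eln (1.71, 1.08 to 2.81; 1.42 when thinned) and Lox, its crosslinking enzyme (1.62, 0.817 to 3.43), and 0 lower, beside 15.8% and 11.5% of all genes, with a median log2 ratio of 0.062. Fn1 (0.925, 0.783 to 1.10), Postn (0.904, 0.786 to 1.04) and Tnc (0.939, 0.785 to 1.12), with 200 to 523 UMIs in each library, had intervals that include 1. Of 15 basement membrane genes 1 was higher and 1 lower, both with intervals that include 1. These were Hspg2 at 1.605, or 0.949 when thinned, and Col15a1 at 0.601, or 1.97 in cluster 13. Remodelling genes had 4 of 11 higher and 1 lower, beside 15.8% and 11.5% of all genes. Adamts1, a secreted protease of matrix proteoglycans on chromosome 16, gave 9 UMIs in 8 wild-type and 203 UMIs in 76 knockout members (12.9, 6.65 to 28.5), against 3.82 (2.48 to 6.15) in the Clec3b group. Timp3, an inhibitor of such proteases, gave 16 and 75 UMIs (2.67, 1.54 to 4.92), or 1.49 when thinned.

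Among other secreted and surface genes, F3 gave 69 UMIs in 39 wild-type and 330 UMIs in 118 knockout members, 250 against 681 CPM (2.73, 2.10 to 3.59), and 4.12 when thinned. Its thinned share of members was 8.50% and 23.4%. Ednrb, an endothelin receptor, gave 32 UMIs in 25 and 181 UMIs in 76 members (3.23, 2.21 to 4.86), and 5 and 11 UMIs in the Clec3b group. Bdkrb2, a bradykinin receptor, was at 1.53 (1.09 to 2.16; 1.27 when thinned), and Glp2r, the receptor for an intestinal growth hormone, at 1.83 (0.989 to 3.62). Of the prostaglandin genes the inducible cyclooxygenase Ptgs2 was higher, at 109 and 341 UMIs (1.78, 1.43 to 2.24), and Ptgs1, the constitutive enzyme, stood at 1.49 (1.21 to 1.85). The Clec3b group gave 4.20 (2.65 to 6.99) for Ptgs2.

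**Figure D5:**
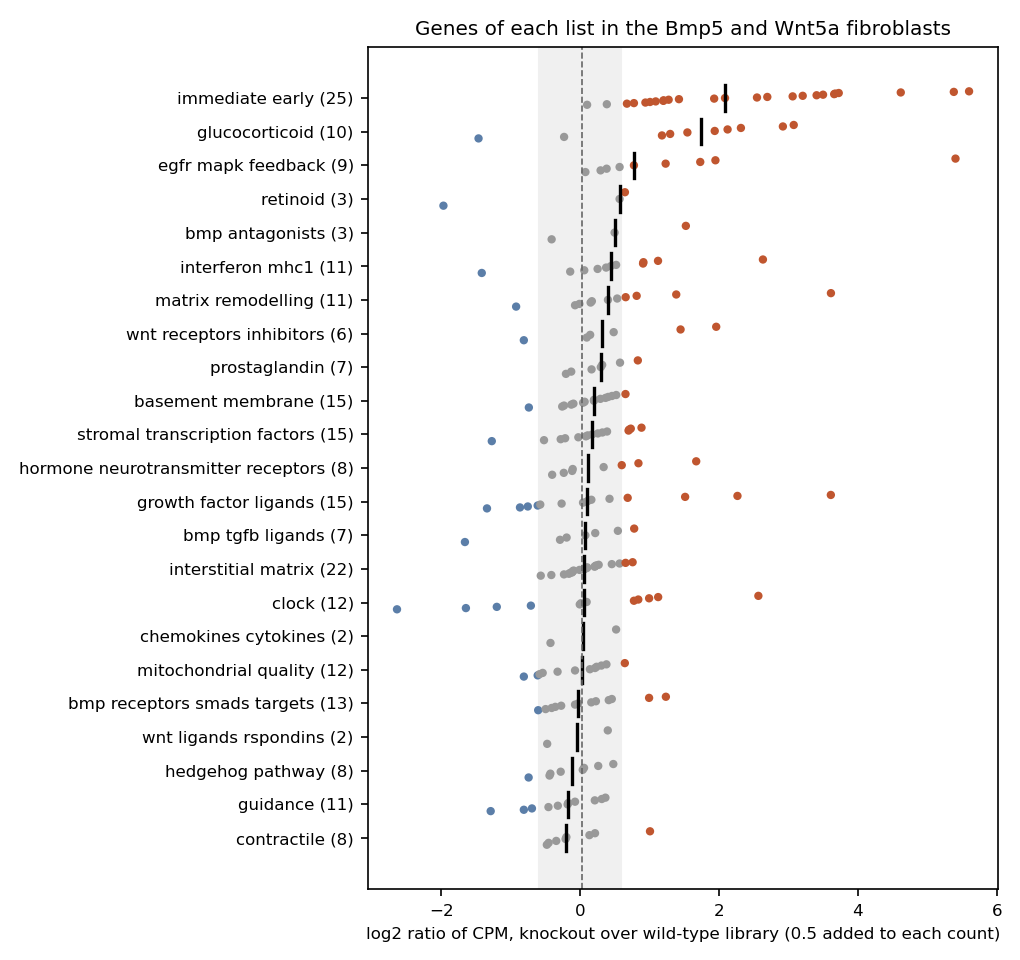
Log2 ratio of CPM, knockout over wild-type library, for each measured gene (points) of 23 lists in the members, with the number of measured genes in parentheses (orange at least 1.5-fold higher, blue at least 1.5-fold lower, black bars the list medians, dashed line the median of all genes). The immediate early median is 2.09 and the glucocorticoid median 1.74, and the interstitial matrix median is 0.062.

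Stromal transcription factors had 4 of 15 higher and 1 lower, beside 15.8% and 11.5% of all genes. The lower one, Tcf21, a factor of visceral mesenchyme, gave 47 UMIs in 33 wild-type and 34 UMIs in 29 knockout members (0.413, 0.257 to 0.655), beside 0.455 in the Clec3b group and 0.527 over all kept nuclei. When thinned it was 0.901. Runx1 was at 485 and 339 CPM (0.698, 0.552 to 0.884). Of 11 guidance genes 3 were lower and 0 higher, beside 11.5% and 15.8% of all genes, led by Sema3a with 35 and 25 UMIs (0.408, 0.234 to 0.701). The lower Sema3c (0.619) and Unc5c (0.571) crossed 1 in alternatives. Sema3c was at 1.07 when thinned, and Unc5c at 1.19 with 0 UMIs of other types. Slitrk6, a neuronal surface protein on chromosome 14, gave 56 UMIs in 34 wild-type and 32 UMIs in 26 knockout members, 203 against 66.1 CPM (0.326, 0.204 to 0.512). It was also among the 12 genes highest in the members against the Clec3b group, where it had 4 and 3 UMIs. Akap7, which anchors protein kinase A, gave 47 and 28 UMIs (0.340, 0.205 to 0.554), and Ahrr, the repressor of the aryl hydrocarbon receptor, 27 and 9 (0.190, 0.0787 to 0.417).

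Some of the lowest genes came from few nuclei. Of the 17 wild-type UMIs of Dmp1, 88.2% lay in 1 nucleus, as did 65.1% of the 43 of Mptx1, a gene of the epithelium at 493 CPM in wild-type epithelial nuclei. Foxp2, a transcription factor, gave 24 wild-type UMIs, 21 of them in members outside clusters 13 and 11, and 7 in the knockout library, a ratio of 0.166 that became 0.489 with 3 fibroblast genes required. Satb1, a chromatin organiser, gave 26 and 13 UMIs, of which 14 and 5 lay in those other clusters. For Mptx1 the ratio of 0.265 turned to 1.65 in cluster 13 alone. These 4 values rest on few nuclei or in good part on members outside clusters 13 and 11.

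Interferon and class I antigen presentation genes had 4 of 11 higher and 1 lower, beside 15.8% and 11.5% of all genes. Iigp1, an interferon-inducible GTPase, gave 7 UMIs in 7 wild-type and 81 UMIs in 13 knockout members (6.60, 3.06 to 16.9). With 0 UMIs of other types its ratio was 2.79. Iigp1 was also higher outside the members, at 2.37 (1.30 to 4.61) in the Clec3b group and 4.07 over all kept nuclei. Epithelial nuclei held it at 4.74 and 30.3 CPM. Ptprc, with 2 and 23 UMIs in the members, differed in the same direction, and its part in the result was not tested. Chemokines were scarce: of 20 chemokine and cytokine genes only Cxcl12 (0.746, 0.546 to 1.02) and Cxcl14 (1.45, 0.873 to 2.50) reached 20 UMIs. The contractile list had Acta2 higher, at 11 and 40 UMIs (2.07, 1.04 to 4.48; 1.32 with at least 2 UMIs of Bmp5 plus Wnt5a), and 7 of 8 genes between the limits. Of the retinoid list Aldh1a3, an enzyme of retinoic acid synthesis, was lower at 14 and 6 UMIs (0.245, 0.0770 to 0.677). Of 12 measured genes of mitochondrial quality control, the field of Pink1, 1 was higher and 2 lower, beside 15.8% and 11.5% of all genes. These were Sqstm1 (1.61), Phb2 (0.571) and Ppargc1a (0.658), all with intervals that include 1, and the list's median log2 ratio was 0.034.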

How the data were processed

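The members and gene lists were chosen with earlier results of these data known. Deposited values were UMI counts per gene and barcode, per the file headers from version 6.1.2 of Cell Ranger, which the authors ran against mm10, also called GRCm38, per the submitters' processing notes. Annotation, strand, introns and doublet removal: not given in the sources used here. No deposited barcode had under 500 UMIs. Barcodes with at least 500 UMIs, 300 genes and at most 10% mitochondrial UMIs were kept. Doublets stayed in, and an alternative left out the highest Scrublet scores (0.8% per 1000 barcodes). Counts of members were summed per library and scaled to CPM over nuclear-encoded genes (1 library per genotype, so no test). Ratios carry exact conditional binomial and shares exact Clopper-Pearson intervals (95%, counting error only). A gene needed 20 UMIs over both libraries, and list counts used 1.5-fold with 0.5 added to each count. A library at 0 was set to a floor of 3 counts. Clustering used scanpy 1.11.5 (2000 genes, 30 components, 20 neighbours, Leiden resolution 1) with no integration. The calculation was tested on simulated data. Genes named were Pink1, the 12 highest and 12 lowest by nearest interval bound in each contrast (without rule, mitochondrial, Y-linked, Xist, immunoglobulin, hemoglobin and clone-named genes), and the list members furthest from 1 or best known. Coordinates are from GENCODE for GRCm38, matched for 99.8% of 32285 IDs.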

Additional observations from a re-analysis of the deposited data

Results flagged for a closer look

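Of 224 genes named or listed that had at least 20 UMIs in both fibroblast groups, 2 were at least 1.5-fold apart in opposite directions between the groups, and the difference was not tested. Fgf2, a growth factor, was at 1.712 in the Bmp5 and Wnt5a fibroblasts (5 and 15 UMIs, 0.591 to 6.02) and 0.6514 in the Clec3b fibroblasts (20 and 22 UMIs, 0.339 to 1.26). Hlf, a clock output factor, was at 1.826 (5 and 16 UMIs, 0.639 to 6.37) and 0.5466 (13 and 12 UMIs, 0.228 to 1.30). All 4 intervals include 1.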

How the results depend on the processing

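No paired analysis was possible because each genotype has 1 library, and for the same reason no replicate could be left out. The share of kept nuclei gave ratios of 1.17 to 1.34 and the share of both fibroblast kinds 1.02 to 1.06 over 7 alternatives to the barcode filter, doublets and member rule. The immediate early count was 17 to 27 genes over 13 alternatives. The number of list genes measured, 25 in the main setting, changed between alternatives, so these counts do not share 1 denominator. Of 2711 gene ratios between genotypes, 2580 stayed inside the main interval, 89 left it on the same side of 1 and 26, of genes with intervals that include 1, on the other side. A further 16 crossed 1 in genes at least 1.5-fold apart or with an interval that excludes 1. When thinned to 500 UMIs these were Twsg1 (1.03), Sema3c (1.07), Per3 (1.14), Aldh1a1 (0.996), Fkbp5 (0.885), and Hspg2, Timp1 and Csrnp1 (each 0.949). With 0 UMIs of other types they were Mptx1 (1.45), Twsg1 (1.07) and Unc5c (1.19), in cluster 13 alone Mptx1 (1.65) and Col15a1 (1.97), with at least 2 UMIs of Bmp5 plus Wnt5a Per2 (0.915) and Ebf1 (0.732), and with 3 fibroblast genes required Sema3c (1.02). Csrnp1 is counted here, but it had 0 wild-type and 21 knockout UMIs in the members. Its value is a bound against the floor of 3 counts and shows no change of direction. The cause of the crossings was not tested. Of 598 list counts, 166 moved by over 1.5 times, and of 480 ratios to the Clec3b group, 51 left the interval and 0 crossed 1. Genes with few UMIs in a library set the limit of depth.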
